A study of Mus musculus with 12 samples.

Results

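The 38 genes described here make or govern 2 kinds of lipid, sterols and fatty acids, and were measured in cultured mouse B cell lymphoma cells with and without an inducible form of the transcription factor TFEB. They were taken by symbol from a list of SREBP pathway, sterol synthesis and fatty acid synthesis genes, and each needed a normalized read count of at least 10 in at least 3 of the 12 libraries. All 38 listed genes were found among the 23479 genes of the deposited data, 1 of them (Msmo1) under its older symbol Sc4mol, and all 38 are among the 13111 genes that met this minimum. By role they comprise 5 genes of the SREBP pathway (Srebf1, Srebf2, Scap, Insig1, Insig2), 1 sterol carrier (Stard4), 18 enzymes of the sterol branch, 11 enzymes of the fatty acid branch and 3 targets of the liver X receptor, LXR (Abca1, Abcg1, Mylip).

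The cells came from a lymphoma of an Eµ-Myc;Eµ-rtTA transgenic C57BL/6 mouse, in which an immunoglobulin enhancer drives Myc in B cells. They grew with 10 ng/mL IL-7 and were selected in puromycin after retroviral transduction, so all 4 groups carry both transgenes and a resistance gene. TFEB-ERT2 cells express TFEB changed at Ser-211 to Ala and fused to ERT2, a mutated human estrogen receptor domain that 4-hydroxytamoxifen (4-OHT) binds. The vector cells carry the empty virus. The groups, with 3 libraries each, are TFEB-ERT2 cells with 4-OHT, TFEB-ERT2 cells with vehicle, vector cells with 4-OHT and vector cells with vehicle, all for 4 days. The labels give the 4-OHT dose as 250 nM in one place and as the same figure in ng/mL in another, so it is uncertain. All cells derive from 1 lymphoma. Nothing in the labels says whether replicates were separate cultures, so p-values cover no more than the scatter between these libraries, which may be technical.

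Sterol regulatory element-binding proteins (SREBPs) are made as precursors held in the endoplasmic reticulum. When sterols are scarce, the escort protein SCAP carries them to the Golgi for cleavage, while INSIG proteins retain SCAP when sterols are plentiful. The protein of Srebf2 is best known for driving sterol genes and that of Srebf1 for fatty acid genes, and lymphocytes need both lipid classes to build membranes as they grow. LXR, which oxysterols activate, drives sterol export. TFEB is known as an activator of lysosome and autophagy genes.

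With 4-OHT in TFEB-ERT2 cells, 6 of the 38 genes rose and 18 fell at an adjusted p under 0.05, while 14 did not pass. Over all 13111 tested genes 27.5% passed, with 13.7% higher and 13.9% lower. The median log2 change of the 38 genes was -0.31, beside 0.04 over all tested genes. The genes that rose were Insig1, Idi1, Ebp, Fasn, Elovl1 and Abcg1. In vector cells given the same 4-OHT, 0 of the 38 passed with limma, against 0.0153% of all tested genes. There 2 of the 38 had an unadjusted p under 0.05, and 0 passed with edgeR or DESeq2 on whole reads. The response to 4-OHT differed between the lines (the interaction) for 16 of the 38 genes, 4 upward and 12 downward, against 15.8% of all tested genes (7.75% upward and 8.01% downward). Changes are log2 differences of (normalized count + 1) with limma's standard error, and p-values are adjusted over all tested genes by the Benjamini-Hochberg method.

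Libraries held 11849029 to 22109283 whole reads, and the number of genes with reads was uneven, at 12204 to 19250 per library in TFEB-ERT2 4-OHT cells, 12089 to 16471 in TFEB-ERT2 vehicle, 11892 to 19057 in vector 4-OHT and 11390 to 15342 in vector vehicle cells. Tfeb, whose rows could include transgene reads, averaged 665 ± 72.6 normalized counts in TFEB-ERT2 4-OHT and 1676 ± 249 in TFEB-ERT2 vehicle libraries, against 221 ± 23.4 in vector 4-OHT and 243 ± 17.7 in vector vehicle libraries (SD, n = 3 each). All 10 B lineage markers were detected, and their summed level was 34305 to 36928 in TFEB-ERT2 4-OHT libraries, against 54778 to 57258 in TFEB-ERT2 vehicle libraries and 54548 to 61584 in the 6 vector libraries. The lower sum was not shared by all of them: 7 of the 10 had a lower mean in TFEB-ERT2 4-OHT than in TFEB-ERT2 vehicle libraries and 3, Cd79a, Blnk and Ptprc, a higher one. Of the markers of other cell types found, all but 2 stayed under 100 normalized counts in every library, and these were Lck (377 to 730.0) and Pecam1 (648 to 908). The 9 macrophage and granulocyte markers summed to 41.7 to 167 in TFEB-ERT2 4-OHT libraries, against 28.8 to 76.0 in TFEB-ERT2 vehicle and 9.3 to 77.1 in the vector libraries. The part of these differences in the results below was not tested. Fewer cells of a type and less RNA per cell cannot be told apart in such bulk samples. Rescaling each library by the upper quartile of its values above 0, an alternative chosen after seeing the data, ended the call of 22 of the 24 genes with 4-OHT in TFEB-ERT2 cells and of all 16 in the difference between the lines; it moved the median log2 change of all tested genes in TFEB-ERT2 cells to 0.17. The same scaling over the tested genes ended none of them. Leaving out of each group its library with the highest number of genes detected, also chosen after seeing the data, gives what is called the reduced set of libraries here.

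**Figure D1:**
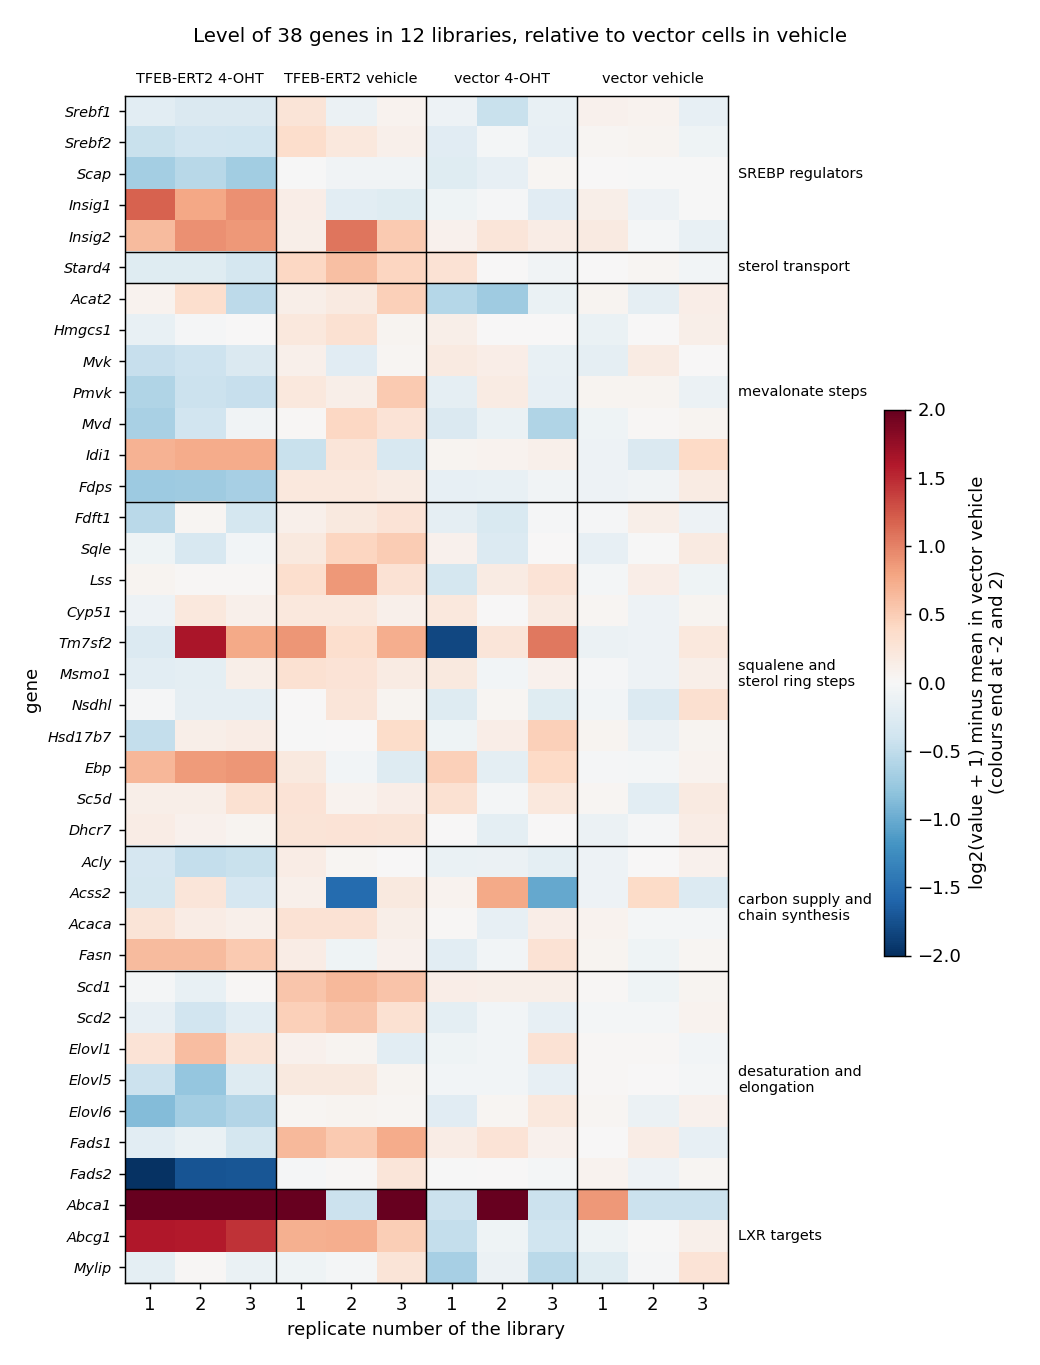
Log2 normalized count of each of the 38 genes in each of the 12 libraries, minus the gene's mean in vector vehicle libraries (colour, ending at 2 in each direction). Rows are genes by role and columns are libraries by group, with TFEB-ERT2 4-OHT at the left. Fads2, Fdps and Elovl6 are below 0, and Insig1 and Abcg1 above 0, in all 3 TFEB-ERT2 4-OHT libraries, while Abca1 runs past the colour range and varies within groups.

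Of the 5 SREBP pathway genes, 3 fell and 1 rose with 4-OHT in TFEB-ERT2 cells. Both precursor genes and their escort Scap were lower and the retention gene Insig1 was higher, while the second retention gene, Insig2, did not pass. Insig1, whose protein keeps SCAP in the endoplasmic reticulum, had 1518, 1146 and 1257 normalized counts in TFEB-ERT2 4-OHT libraries, against 733, 576 and 568 in TFEB-ERT2 vehicle libraries. In vector cells Insig1 had 628, 659.6 and 569.9 with 4-OHT and 726, 622 and 664 with vehicle. In TFEB-ERT2 cells Insig1 was thus 2.09-fold higher with 4-OHT (log2 change 1.06 ± 0.13 SE, adjusted p = 1.22e-07), every library above those of vehicle, and the vector groups overlapped. The Insig1 response differed between the lines (interaction 1.18 ± 0.19 SE, adjusted p = 1.72e-05). Insig1 lies at chr5:28071363-28078662, plus strand, in mm10. Counts of Insig2, which encodes the other retention protein, were 386, 469 and 455 with 4-OHT and 271, 522 and 357 with vehicle in TFEB-ERT2 cells. They were 263, 294 and 276 with 4-OHT and 282, 242 and 225 with vehicle in vector cells. The change with 4-OHT in TFEB-ERT2 cells did not pass (log2 change 0.24 ± 0.20 SE, adjusted p = 0.455), and the 4-OHT and vehicle libraries overlapped in both lines. For Insig2 the 2 lines did not differ past the threshold (interaction 0.08 ± 0.28 SE, adjusted p = 0.924). Between the lines in 4-OHT, Insig2 was 1.57-fold higher in TFEB-ERT2 than in vector cells (log2 change 0.65 ± 0.20 SE, adjusted p = 0.0144). That line difference was lost without TFEB-ERT2 4-OHT replicates 2 or 3, with no variance trend and in the reduced set of libraries (adjusted p = 0.0557 to 0.0849, and 0.00386 to 0.369 over all alternatives).

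TFEB-ERT2 libraries held 2733, 2847 and 2817 normalized counts of Srebf2, the gene of SREBP-2, with 4-OHT and 4714, 4272 and 3987 with vehicle. Vector libraries held 3168, 3628 and 3309 of Srebf2 with 4-OHT and 3795, 3851 and 3495 with vehicle. With 4-OHT, Srebf2 was 1.54-fold lower in TFEB-ERT2 cells (log2 change -0.62 ± 0.08 SE, adjusted p = 5.67e-07), without overlap, whereas the vector groups overlapped. The Srebf2 response differed between the lines (interaction -0.48 ± 0.12 SE, adjusted p = 0.00398). The interaction of Srebf2 was lost in the reduced set of libraries (adjusted p = 0.118, and 0.000111 to 1 over all alternatives). Scap, the gene of the SREBP escort, had 2471, 2689 and 2453 normalized counts in TFEB-ERT2 4-OHT libraries, against 3915, 3749.9 and 3748 in TFEB-ERT2 vehicle libraries. In vector cells Scap had 3350.5, 3525 and 4068 with 4-OHT and 3975, 3945 and 3940.0 with vehicle. Scap fell 1.5-fold with 4-OHT in TFEB-ERT2 cells (log2 change -0.58 ± 0.08 SE, adjusted p = 1.5e-06), where the 2 groups did not overlap, and the vector groups overlapped. The Scap response differed between the lines (interaction -0.46 ± 0.12 SE, adjusted p = 0.00517). The interaction of Scap was lost in the reduced set of libraries (adjusted p = 0.0542, and 0.000145 to 1 over all alternatives). In the annotation, 13.2% of the exon bases of Scap overlap a gene on the other strand, and the sources used here do not say whether reads were counted by strand. Counts of Srebf1, the gene of SREBP-1, were 921, 867 and 872 with 4-OHT and 1266, 983 and 1121 with vehicle in TFEB-ERT2 cells. They were 992, 778 and 960.5 with 4-OHT and 1133, 1115 and 948 with vehicle in vector cells. In TFEB-ERT2 cells Srebf1 was thus 1.26-fold lower with 4-OHT (log2 change -0.33 ± 0.12 SE, adjusted p = 0.0357), every library below those of vehicle, and the vector groups overlapped. For Srebf1 the 2 lines did not differ past the threshold (interaction -0.10 ± 0.17 SE, adjusted p = 0.802). The call of Srebf1 in TFEB-ERT2 cells was lost without TFEB-ERT2 4-OHT replicates 1, 2 or 3 or TFEB-ERT2 vehicle replicates 1 or 3, with no variance trend and in the reduced set of libraries (adjusted p = 0.055 to 0.302, and 0.012 to 0.972 over all alternatives). In vector cells the difference of Srebf1 had the same sign (log2 change -0.23 ± 0.12 SE).

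Insig1, Scap and Elovl5 share a letter string in their promoters although Insig1 rose and the other two fell, and their RefSeq promoter windows (build GRCm38.p6, 250 bases before to 50 bases after a transcription start) are printed to show it. The string is CACGTG, the core of the E-box that both Myc and TFEB are known to bind, and it is in capitals. It reads the same on both strands.
Insig1: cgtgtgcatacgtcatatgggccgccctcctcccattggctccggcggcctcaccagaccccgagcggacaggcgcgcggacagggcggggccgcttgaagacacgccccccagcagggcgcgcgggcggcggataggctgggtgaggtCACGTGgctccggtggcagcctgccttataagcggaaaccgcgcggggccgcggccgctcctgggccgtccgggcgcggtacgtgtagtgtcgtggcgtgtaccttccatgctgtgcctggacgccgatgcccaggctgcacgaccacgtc
Scap: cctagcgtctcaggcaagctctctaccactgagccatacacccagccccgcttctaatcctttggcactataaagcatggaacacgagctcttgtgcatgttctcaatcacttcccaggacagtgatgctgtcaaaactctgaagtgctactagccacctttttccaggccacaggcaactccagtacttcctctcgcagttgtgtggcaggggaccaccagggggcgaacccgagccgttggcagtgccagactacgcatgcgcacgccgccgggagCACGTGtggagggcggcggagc
Elovl5: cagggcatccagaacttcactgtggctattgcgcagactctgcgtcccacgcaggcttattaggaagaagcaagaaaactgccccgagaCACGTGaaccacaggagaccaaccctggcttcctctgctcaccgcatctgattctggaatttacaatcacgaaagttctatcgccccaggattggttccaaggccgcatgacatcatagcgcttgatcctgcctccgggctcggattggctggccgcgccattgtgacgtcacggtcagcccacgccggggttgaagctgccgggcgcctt
The windows are chr5:28071162-28071461, plus strand, for Insig1, chr9:110333038-110333337, plus strand, for the first of the Scap starts, and chr9:77917115-77917414, plus strand, for Elovl5.

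RefSeq promoter windows were matched to 30 of the 38 genes by symbol, leaving Stard4, Fdps, Fdft1, Sqle, Scd1, Scd2, Fads1 and Abcg1 without one. CACGTG was present for 7 of the 30 genes, a share of 23.3%, against 8.09% of all 27025 genes and 7.15% of all 32851 windows. The 7 were Scap, Insig1, Hsd17b7, Sc5d, Dhcr7, Elovl5 and Abca1, of which 1 rose, 2 fell and 4 did not pass with 4-OHT in TFEB-ERT2 cells. TCACGTGA, an extended form that contains CACGTG and is typical of lysosome gene promoters, was found for 0 of the 30 genes and for 1.12% of all genes. CCAAT, which contains neither string and was searched on both strands, was present for 24 of the 30 (80.0%), against 41.1% of all genes. TCACNCCAC, a sterol regulatory element pattern searched on both strands, was present for 1 of the 30, against 1.44% of all genes. That gene was Hmgcs1, whose product makes HMG-CoA and whose window (chr13:119690101-119690400, plus strand) is shown because the match, in capitals, is the classic element of SREBP promoters.
Hmgcs1: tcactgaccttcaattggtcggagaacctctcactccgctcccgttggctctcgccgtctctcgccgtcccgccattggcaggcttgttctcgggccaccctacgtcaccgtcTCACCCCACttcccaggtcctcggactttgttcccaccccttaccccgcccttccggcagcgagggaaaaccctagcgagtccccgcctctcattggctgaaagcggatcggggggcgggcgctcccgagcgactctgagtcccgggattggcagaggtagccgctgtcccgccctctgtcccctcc
A string found is a description and not a site of binding, and no match says only that these letters are not in this window.

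Stard4 encodes a carrier that moves cholesterol between membranes. TFEB-ERT2 libraries held 1299.9, 1309 and 1217 normalized counts of Stard4, which SREBP-2 is known to induce, with 4-OHT and 2066, 2340.2 and 2078 with vehicle. Vector libraries held 1895, 1552 and 1465 of Stard4 with 4-OHT and 1557, 1585 and 1495 with vehicle. With 4-OHT, Stard4 was 1.69-fold lower in TFEB-ERT2 cells (log2 change -0.76 ± 0.10 SE, adjusted p = 3.57e-07), without overlap, whereas the vector groups overlapped. The Stard4 response differed between the lines (interaction -0.83 ± 0.14 SE, adjusted p = 4.73e-05). Stard4 was also 1.4-fold higher in TFEB-ERT2 than in vector cells in vehicle (log2 change 0.48 ± 0.10 SE, adjusted p = 0.00235). That line difference was lost with no variance trend and in the reduced set of libraries (adjusted p = 0.0557 to 0.0751, and 2.15e-05 to 0.955 over all alternatives).

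Of the 7 mevalonate steps, which build the isoprene units of sterols, 1 rose, 3 fell and 3 did not pass with 4-OHT in TFEB-ERT2 cells. The median log2 change of the 7 genes was -0.36. The largest fall was that of Fdps and the only rise was that of Idi1, which acts just before it. Fdps, the synthase of farnesyl diphosphate, had 1994, 2019 and 2100.3 normalized counts in TFEB-ERT2 4-OHT libraries, against 3840.5, 3819 and 3728 in TFEB-ERT2 vehicle libraries. In vector cells Fdps had 2968, 3006 and 3159.6 with 4-OHT and 3099, 3168 and 3716 with vehicle. Fdps fell 1.86-fold with 4-OHT in TFEB-ERT2 cells (log2 change -0.90 ± 0.08 SE, adjusted p = 4.28e-10), where the 2 groups did not overlap, and the vector groups overlapped. The Fdps response differed between the lines (interaction -0.77 ± 0.12 SE, adjusted p = 1.09e-05). The Fdps count is uncertain, since 26.2% of its 50-base stretches also occur in transcripts of other genes, most of all Gm43738, which overlaps it. Counts of Idi1, the isomerase that makes dimethylallyl diphosphate, were 779, 799 and 798 with 4-OHT and 351, 566 and 382 with vehicle in TFEB-ERT2 cells. They were 495, 501 and 516 with 4-OHT and 444, 392 and 629.7 with vehicle in vector cells. In TFEB-ERT2 cells Idi1 was thus 1.87-fold higher with 4-OHT (log2 change 0.90 ± 0.17 SE, adjusted p = 9.35e-05), every library above those of vehicle, and the vector groups overlapped. The Idi1 response differed between the lines (interaction 0.83 ± 0.24 SE, adjusted p = 0.0142). The interaction of Idi1 was lost without TFEB-ERT2 vehicle replicate 1 or vector vehicle replicate 3, with no variance trend and in the reduced set of libraries (adjusted p = 0.0527 to 0.216, and 0.00114 to 1 over all alternatives). 17.7% of the 50-base stretches of Idi1 also occur in transcripts of other genes, most of all Gm13502, so its count is uncertain too.

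TFEB-ERT2 libraries held 428, 484 and 475 normalized counts of Pmvk, the second of the mevalonate kinases, with 4-OHT and 757, 711 and 941 with vehicle. Vector libraries held 573, 734 and 581 of Pmvk with 4-OHT and 679.9, 681 and 601 with vehicle. With 4-OHT, Pmvk was 1.72-fold lower in TFEB-ERT2 cells (log2 change -0.79 ± 0.14 SE, adjusted p = 4.43e-05), without overlap, whereas the vector groups overlapped. The Pmvk response differed between the lines (interaction -0.72 ± 0.20 SE, adjusted p = 0.00895). The interaction of Pmvk was lost in the reduced set of libraries (adjusted p = 0.106, and 0.000895 to 1 over all alternatives). Mvd, the decarboxylase of the pathway, had 297, 358 and 444 normalized counts in TFEB-ERT2 4-OHT libraries, against 473, 620.0 and 563 in TFEB-ERT2 vehicle libraries. In vector cells Mvd had 381, 426 and 308 with 4-OHT and 439.5, 476 and 483 with vehicle. Mvd fell 1.52-fold with 4-OHT in TFEB-ERT2 cells (log2 change -0.60 ± 0.17 SE, adjusted p = 0.00737), where the 2 groups did not overlap, and all vector 4-OHT libraries lay below the vector vehicle libraries. For Mvd the 2 lines did not differ past the threshold (interaction -0.26 ± 0.24 SE, adjusted p = 0.58). The call of Mvd in TFEB-ERT2 cells was lost without TFEB-ERT2 4-OHT replicate 1 (adjusted p = 0.0697, and 0.0017 to 0.819 over all alternatives). The other mevalonate genes did not pass in any comparison in the main limma fit, although Hmgcs1 and Mvk passed in some alternatives. Hmgcs1, whose promoter is shown above, had 1593 to 1779 normalized counts in TFEB-ERT2 4-OHT libraries, 1839.9 to 2191 in TFEB-ERT2 vehicle, 1790.3 to 1932 in vector 4-OHT and 1622 to 1916 in vector vehicle libraries, which was a log2 change of -0.25 ± 0.09 SE in TFEB-ERT2 cells (adjusted p = 0.0505). That change of Hmgcs1 passed with a pseudocount of 0.5, with a minimum of 50, with upper-quartile scaling, with edgeR on whole reads, with DESeq2 on whole reads and without TFEB-ERT2 vehicle replicate 3 or vector 4-OHT replicate 3 (adjusted p = 0.0158 to 0.0494, and 0.0158 to 0.994 over all alternatives). Mvk, the first kinase, had 253 to 283 normalized counts in TFEB-ERT2 4-OHT libraries, 296 to 374 in TFEB-ERT2 vehicle, 313 to 393 in vector 4-OHT and 308 to 389.5 in vector vehicle libraries. In 4-OHT, Mvk had a log2 difference of -0.44 ± 0.18 SE between TFEB-ERT2 and vector cells (adjusted p = 0.0653). This line difference of Mvk passed with a minimum of 50, with edgeR on whole reads, with DESeq2 on whole reads, with no variance trend and without vector 4-OHT replicate 3 (adjusted p = 0.019 to 0.0465, and 0.019 to 0.939 over all alternatives). Acat2, which joins acetyl-CoA units, had 156 to 283 normalized counts in TFEB-ERT2 4-OHT libraries, 242 to 312 in TFEB-ERT2 vehicle, 136 to 205 in vector 4-OHT and 197 to 245 in vector vehicle libraries. Of its 50-base stretches, 39.1% also occur in transcripts of other genes, most of all Acat3. For Acat2 the 4-OHT and vehicle libraries overlapped in both lines. For Mvk they overlapped in vector cells only. Their log2 changes with 4-OHT in TFEB-ERT2 cells were -0.29 ± 0.24 SE for Acat2 and -0.36 ± 0.18 SE for Mvk.

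The 11 genes from squalene to the finished sterol ring had a median change nearer to 0 than the mevalonate genes. With 4-OHT in TFEB-ERT2 cells 1 rose, 4 fell and 6 did not pass, and the median log2 change was -0.19. For 0 of the 11 did the response differ between the lines past the threshold with limma, although 4 had an unadjusted p under 0.05. With edgeR 0 and with DESeq2 2 of them passed. Sqle, the epoxidase that adds oxygen to squalene, fell most and Ebp, a sterol isomerase, rose. TFEB-ERT2 libraries held 848, 716 and 861 normalized counts of Sqle, a rate-limiting enzyme of the pathway, with 4-OHT and 1034, 1214 and 1286 with vehicle. Vector libraries held 955, 742 and 901 of Sqle with 4-OHT and 801, 890.0 and 1021 with vehicle. In TFEB-ERT2 cells Sqle was thus 1.46-fold lower with 4-OHT (log2 change -0.54 ± 0.13 SE, adjusted p = 0.00122), every library below those of vehicle, and the vector groups overlapped. For Sqle the 2 lines did not differ past the threshold (interaction -0.48 ± 0.18 SE, adjusted p = 0.0667). The interaction of Sqle passed with DESeq2 on whole reads and without TFEB-ERT2 vehicle replicate 1, vector 4-OHT replicate 2 or vector vehicle replicate 3 (adjusted p = 0.0261 to 0.0381, and 0.0261 to 1 over all alternatives). Ebp, which moves a double bond in the sterol ring, had 384, 440.2 and 446 normalized counts in TFEB-ERT2 4-OHT libraries, against 278, 233 and 203 in TFEB-ERT2 vehicle libraries. In vector cells Ebp had 338, 211 and 319 with 4-OHT and 238, 235 and 255 with vehicle. With 4-OHT, Ebp was 1.79-fold higher in TFEB-ERT2 cells (log2 change 0.84 ± 0.20 SE, adjusted p = 0.0017), without overlap, whereas the vector groups overlapped. For Ebp the 2 lines did not differ past the threshold (interaction 0.62 ± 0.28 SE, adjusted p = 0.162).

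Each of the other 3 ring genes that fell lost its call in some fits. Counts of Fdft1, the squalene synthase gene, were 379, 567 and 429.8 with 4-OHT and 590.4, 634 and 666 with vehicle in TFEB-ERT2 cells. They were 487, 446 and 542 with 4-OHT and 544, 600.4 and 512 with vehicle in vector cells. Fdft1 fell 1.39-fold with 4-OHT in TFEB-ERT2 cells (log2 change -0.48 ± 0.15 SE, adjusted p = 0.0165), where the 2 groups did not overlap, and the vector groups overlapped. For Fdft1 the 2 lines did not differ past the threshold (interaction -0.31 ± 0.21 SE, adjusted p = 0.412). The call of Fdft1 in TFEB-ERT2 cells was lost without TFEB-ERT2 4-OHT replicates 1 or 3 or TFEB-ERT2 vehicle replicate 3 (adjusted p = 0.0542 to 0.127, and 0.00313 to 0.909 over all alternatives). In the annotation 18.3% of the exon bases of Fdft1 overlap Ctsb on the other strand. Lss, the lanosterol synthase gene, had 559.6, 547 and 550.1 normalized counts in TFEB-ERT2 4-OHT libraries, against 684, 983 and 659 in TFEB-ERT2 vehicle libraries. In vector cells Lss had 421, 606 and 650.2 with 4-OHT and 524, 591 and 505 with vehicle. In TFEB-ERT2 cells Lss was thus 1.38-fold lower with 4-OHT (log2 change -0.46 ± 0.16 SE, adjusted p = 0.0278), every library below those of vehicle, and the vector groups overlapped. For Lss the 2 lines did not differ past the threshold (interaction -0.49 ± 0.23 SE, adjusted p = 0.157). The call of Lss in TFEB-ERT2 cells was lost without TFEB-ERT2 4-OHT replicates 1, 2 or 3 or TFEB-ERT2 vehicle replicate 2, with no variance trend and in the reduced set of libraries (adjusted p = 0.0611 to 0.241, and 0.00939 to 0.914 over all alternatives). The interaction of Lss passed without vector 4-OHT replicate 1 (adjusted p = 0.0307, and 0.0307 to 1 over all alternatives). TFEB-ERT2 libraries held 650.0, 654 and 813 normalized counts of Msmo1, a sterol methyl oxidase gene, with 4-OHT and 928, 906 and 843 with vehicle. Vector libraries held 861, 720.1 and 797 of Msmo1 with 4-OHT and 743, 702 and 813 with vehicle. With 4-OHT, Msmo1 was 1.27-fold lower in TFEB-ERT2 cells (log2 change -0.34 ± 0.12 SE, adjusted p = 0.0346), without overlap, whereas the vector groups overlapped. For Msmo1 the 2 lines did not differ past the threshold (interaction -0.42 ± 0.17 SE, adjusted p = 0.108). The call of Msmo1 in TFEB-ERT2 cells was lost without TFEB-ERT2 4-OHT replicates 1 or 2 or TFEB-ERT2 vehicle replicates 1 or 2, with no variance trend, in a fit of the compared groups alone and in the reduced set of libraries (adjusted p = 0.0507 to 0.286, and 0.0123 to 0.969 over all alternatives). The interaction of Msmo1 passed with DESeq2 on whole reads (adjusted p = 0.0464, and 0.0464 to 1 over all alternatives).

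The 6 ring genes that did not pass in any comparison act in demethylation, reduction and desaturation of the ring. Their log2 changes with 4-OHT in TFEB-ERT2 cells lay between -0.23 (Nsdhl) and 0.06 (Tm7sf2). Cyp51, the lanosterol demethylase, had 1511 to 1874 normalized counts in TFEB-ERT2 4-OHT libraries, 1749 to 1887 in TFEB-ERT2 vehicle, 1632 to 1886 in vector 4-OHT and 1513 to 1684 in vector vehicle libraries. Dhcr7, which makes cholesterol in the last step of one route, had 865 to 924 normalized counts in TFEB-ERT2 4-OHT libraries, 993 to 1007 in TFEB-ERT2 vehicle, 725 to 839 in vector 4-OHT and 769.9 to 921 in vector vehicle libraries. For Cyp51 the 4-OHT and vehicle libraries overlapped in both lines. For Dhcr7 they overlapped in vector cells only. Sc5d, a desaturase, had 924 to 1057 normalized counts in TFEB-ERT2 4-OHT libraries, 899.6 to 1035 in TFEB-ERT2 vehicle, 832 to 1052 in vector 4-OHT and 737 to 969 in vector vehicle libraries. Hsd17b7, a ketoreductase, had 288 to 443 normalized counts in TFEB-ERT2 4-OHT libraries, 398 to 517 in TFEB-ERT2 vehicle, 377 to 555 in vector 4-OHT and 369 to 417 in vector vehicle libraries. Nsdhl, a decarboxylating dehydrogenase, had 409 to 459 normalized counts in TFEB-ERT2 4-OHT libraries, 470.4 to 551 in TFEB-ERT2 vehicle, 389 to 480.5 in vector 4-OHT and 386 to 583 in vector vehicle libraries. Tm7sf2, a sterol reductase, was low at 26.9 to 105 normalized counts in TFEB-ERT2 4-OHT libraries, 41.6 to 61.7 in TFEB-ERT2 vehicle, 8.59 to 69.3 in vector 4-OHT and 30.2 to 38.3 in vector vehicle libraries, and its standard error of 0.63 means that only large changes could pass.

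In the fatty acid branch most genes of desaturation and elongation fell and the gene of the synthase itself rose. Of 4 genes that supply carbon or build the chain, Fasn rose, Acly fell and Acss2 and Acaca did not pass. Fasn, the fatty acid synthase gene, had 9368, 9289 and 8683 normalized counts in TFEB-ERT2 4-OHT libraries, against 6668, 5631 and 6351 in TFEB-ERT2 vehicle libraries. In vector cells Fasn had 5204, 5761 and 7380.2 with 4-OHT and 6260.2, 5641 and 6145 with vehicle. Fasn rose 1.47-fold with 4-OHT in TFEB-ERT2 cells (log2 change 0.55 ± 0.10 SE, adjusted p = 3.5e-05), where the 2 groups did not overlap, and the vector groups overlapped. The Fasn response differed between the lines (interaction 0.55 ± 0.14 SE, adjusted p = 0.00459). The interaction of Fasn was lost with no variance trend and in the reduced set of libraries (adjusted p = 0.0988 to 0.139, and 6.65e-05 to 1 over all alternatives). TFEB-ERT2 libraries held 6105, 5517 and 5664 normalized counts of Acly, which makes cytosolic acetyl-CoA from citrate, with 4-OHT and 8552, 7882 and 7759 with vehicle. Vector libraries held 7008, 7104 and 6709.8 of Acly with 4-OHT and 7189, 7741 and 8152 with vehicle. In TFEB-ERT2 cells Acly was thus 1.4-fold lower with 4-OHT (log2 change -0.48 ± 0.08 SE, adjusted p = 1.16e-05), every library below those of vehicle, and all vector 4-OHT libraries lay below the vector vehicle libraries. The Acly response differed between the lines (interaction -0.34 ± 0.11 SE, adjusted p = 0.0337). The interaction of Acly was lost without TFEB-ERT2 4-OHT replicates 2 or 3, TFEB-ERT2 vehicle replicate 1, vector 4-OHT replicates 1 or 2 or vector vehicle replicates 1 or 2, with no filter on low values, with edgeR on whole reads, with no variance trend and in the reduced set of libraries (adjusted p = 0.0531 to 0.461, and 0.00432 to 1 over all alternatives). Acaca, the acetyl-CoA carboxylase gene, had 2313 to 2577 normalized counts in TFEB-ERT2 4-OHT libraries, 2331 to 2642 in TFEB-ERT2 vehicle, 1926 to 2350.4 in vector 4-OHT and 2100.3 to 2257 in vector vehicle libraries, a log2 change of -0.06 ± 0.09 SE in TFEB-ERT2 cells. Of its 50-base stretches, 30.4% also occur in transcripts of other genes, most of all Gm5182. Acss2, which makes acetyl-CoA from acetate, was low at 45.2 to 68.4 normalized counts in TFEB-ERT2 4-OHT libraries, 19.2 to 66.4 in TFEB-ERT2 vehicle, 27.9 to 98.5 in vector 4-OHT and 47.9 to 75.5 in vector vehicle libraries, and its groups overlapped.

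Of the 7 desaturases and elongases, 6 fell and 1 rose with 4-OHT in TFEB-ERT2 cells, with a median log2 change of -0.71. The 3 TFEB-ERT2 4-OHT libraries and the 3 TFEB-ERT2 vehicle libraries did not overlap for any of the 7. Over all tested genes 38% showed no such overlap and 27.5% passed the test. The largest change of all 24 called genes was the fall of Fads2. Fads2, the desaturase that begins polyunsaturated fatty acid synthesis, had 66.7, 80 and 80.5 normalized counts in TFEB-ERT2 4-OHT libraries, against 262, 271 and 314 in TFEB-ERT2 vehicle libraries. In vector cells Fads2 had 264, 268 and 259 with 4-OHT and 279, 248 and 273 with vehicle. With 4-OHT, Fads2 was 3.69-fold lower in TFEB-ERT2 cells (log2 change -1.89 ± 0.22 SE, adjusted p = 5.47e-08), without overlap, whereas the vector groups overlapped. The Fads2 response differed between the lines (interaction -1.87 ± 0.32 SE, adjusted p = 4.69e-05). Counts of Fads1, the desaturase that acts later in the same route, were 633, 665 and 573 with 4-OHT and 1146, 1053 and 1225 with vehicle in TFEB-ERT2 cells. They were 814, 884 and 772 with 4-OHT and 737, 809.8 and 653 with vehicle in vector cells. Fads1 fell 1.83-fold with 4-OHT in TFEB-ERT2 cells (log2 change -0.87 ± 0.12 SE, adjusted p = 8.24e-07), where the 2 groups did not overlap, and the vector groups overlapped. The Fads1 response differed between the lines (interaction -1.04 ± 0.17 SE, adjusted p = 2.7e-05). In the annotation Fads1 lies at chr19:10182888-10196877, plus strand, and Fads2 at chr19:10062765-10101746, minus strand.

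The 2 stearoyl-CoA desaturases, which make monounsaturated fatty acids, both fell with 4-OHT in TFEB-ERT2 cells. TFEB-ERT2 libraries held 5926, 5521 and 6207 normalized counts of Scd1, the first of them, with 4-OHT and 9015, 9586 and 9082 with vehicle. Vector libraries held 6701, 6637 and 6623 of Scd1 with 4-OHT and 6217, 5782 and 6343 with vehicle. In TFEB-ERT2 cells Scd1 was thus 1.57-fold lower with 4-OHT (log2 change -0.65 ± 0.08 SE, adjusted p = 4.53e-08), every library below those of vehicle, and all vector 4-OHT libraries lay above the vector vehicle libraries. The Scd1 response differed between the lines (interaction -0.77 ± 0.11 SE, adjusted p = 2.42e-06). Scd2, the second, had 14444, 12385 and 13990.3 normalized counts in TFEB-ERT2 4-OHT libraries, against 22698, 23872 and 20083 in TFEB-ERT2 vehicle libraries. In vector cells Scd2 had 14241, 15593 and 14481 with 4-OHT and 15859, 15846 and 17027 with vehicle. With 4-OHT, Scd2 was 1.63-fold lower in TFEB-ERT2 cells (log2 change -0.71 ± 0.09 SE, adjusted p = 7.62e-08), without overlap, whereas all vector 4-OHT libraries lay below the vector vehicle libraries. The Scd2 response differed between the lines (interaction -0.57 ± 0.12 SE, adjusted p = 0.000837). The interaction of Scd2 was lost in the reduced set of libraries (adjusted p = 0.119, and 5.39e-06 to 1 over all alternatives). Of their 50-base stretches, 4.56% for Scd1 and 3.97% for Scd2 also occur in another gene. Per kilobase of merged exons, Scd2 had the highest level of the 38 genes, at 2490.0 normalized counts in TFEB-ERT2 4-OHT and 4066 in TFEB-ERT2 vehicle cells. Scd1 followed at 1203 and 1886 per kilobase.

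Counts of Elovl6, an elongase of saturated and monounsaturated chains, were 1713, 1941 and 2073 with 4-OHT and 3212, 3253 and 3206 with vehicle in TFEB-ERT2 cells. They were 2660.2, 3214 and 3603 with 4-OHT and 3204, 2872 and 3302 with vehicle in vector cells. Elovl6 fell 1.69-fold with 4-OHT in TFEB-ERT2 cells (log2 change -0.76 ± 0.10 SE, adjusted p = 2.57e-07), where the 2 groups did not overlap, and the vector groups overlapped. The Elovl6 response differed between the lines (interaction -0.77 ± 0.14 SE, adjusted p = 0.000121). Elovl5, an elongase of polyunsaturated chains whose promoter is shown above, had 1254, 987 and 1413 normalized counts in TFEB-ERT2 4-OHT libraries, against 1926, 1923 and 1750.0 in TFEB-ERT2 vehicle libraries. In vector cells Elovl5 had 1622, 1612 and 1503 with 4-OHT and 1718, 1690.3 and 1637 with vehicle. In TFEB-ERT2 cells Elovl5 was thus 1.55-fold lower with 4-OHT (log2 change -0.63 ± 0.11 SE, adjusted p = 2.26e-05), every library below those of vehicle, and all vector 4-OHT libraries lay below the vector vehicle libraries. The Elovl5 response differed between the lines (interaction -0.54 ± 0.15 SE, adjusted p = 0.0112). The interaction of Elovl5 was lost without TFEB-ERT2 4-OHT replicate 2, with no variance trend and in the reduced set of libraries (adjusted p = 0.064 to 0.22, and 0.0026 to 1 over all alternatives). TFEB-ERT2 libraries held 944, 1193 and 926 normalized counts of Elovl1, an elongase of very long saturated chains, with 4-OHT and 821, 805 and 670.4 with vehicle. Vector libraries held 735, 746 and 951 of Elovl1 with 4-OHT and 788, 793 and 749.9 with vehicle. With 4-OHT, Elovl1 was 1.33-fold higher in TFEB-ERT2 cells (log2 change 0.41 ± 0.13 SE, adjusted p = 0.0153), without overlap, whereas the vector groups overlapped. For Elovl1 the 2 lines did not differ past the threshold (interaction 0.36 ± 0.18 SE, adjusted p = 0.214). The call of Elovl1 in TFEB-ERT2 cells was lost without TFEB-ERT2 4-OHT replicate 2 or TFEB-ERT2 vehicle replicate 3, with no variance trend and in the reduced set of libraries (adjusted p = 0.0649 to 0.16, and 0.00509 to 0.664 over all alternatives). Elovl1 was thus the exception in direction among the 7, and its call was not stable.

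**Figure D2:**
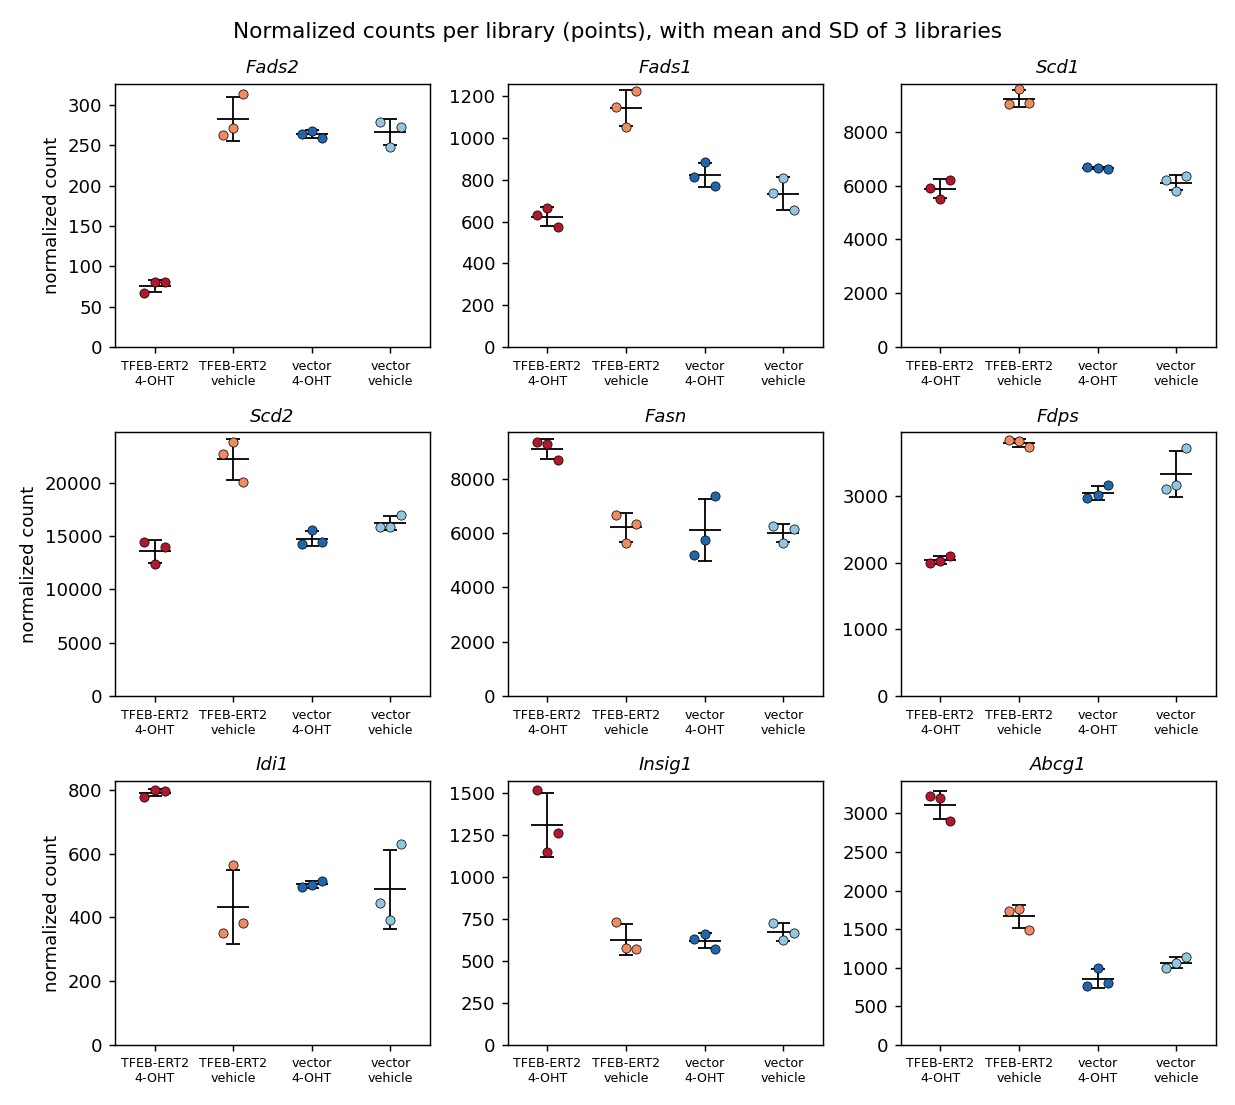
Normalized count (vertical axes, from 0) of 9 of the genes in each library, as points, with the mean and SD of 3 libraries per group. Fads2, Fads1 and Fdps have their lowest mean, and Fasn, Idi1, Insig1 and Abcg1 their highest, in TFEB-ERT2 4-OHT cells, while Scd1 and Scd2 have their highest mean in TFEB-ERT2 vehicle cells.

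Of the 3 LXR targets, Abcg1 rose and Abca1 and Mylip did not pass. Abcg1, a transporter that exports sterols to HDL, had 3224, 3202 and 2903 normalized counts in TFEB-ERT2 4-OHT libraries, against 1740.3, 1762 and 1490.2 in TFEB-ERT2 vehicle libraries. In vector cells Abcg1 had 762, 995 and 807 with 4-OHT and 996, 1058 and 1137 with vehicle. Abcg1 rose 1.87-fold with 4-OHT in TFEB-ERT2 cells (log2 change 0.90 ± 0.11 SE, adjusted p = 4.69e-08), where the 2 groups did not overlap, and all vector 4-OHT libraries lay below the vector vehicle libraries. The Abcg1 response differed between the lines (interaction 1.23 ± 0.15 SE, adjusted p = 2.41e-07). Abcg1 lies at chr17:31057675-31117988, plus strand. Abcg1 was also 1.56-fold higher in TFEB-ERT2 than in vector cells in vehicle (log2 change 0.64 ± 0.11 SE, adjusted p = 0.000133) and 3.65-fold higher in 4-OHT (log2 change 1.87 ± 0.11 SE, adjusted p = 4.3e-15). Abca1, the other exporter, had 11.8, 94.2 and 24.3 normalized counts in TFEB-ERT2 4-OHT libraries, against 17.1, 0 and 51.1 in TFEB-ERT2 vehicle libraries. In vector cells Abca1 had 0, 38 and 0 with 4-OHT and 1.47, 0 and 0 with vehicle. Abca1 was at 0 in 5 of the 12 libraries, each of which could hold up to 3 unseen reads (2.36 to 3.22 normalized counts), and its groups overlapped. Mylip, whose protein marks lipoprotein receptors for degradation, had 754 to 878 normalized counts in TFEB-ERT2 4-OHT libraries, 817 to 1041 in TFEB-ERT2 vehicle, 545 to 795 in vector 4-OHT and 733 to 1045 in vector vehicle libraries. Its response did not differ between the lines past the threshold (interaction 0.29 ± 0.20 SE, adjusted p = 0.416). In vector cells Mylip had a log2 change of -0.44 ± 0.14 SE with 4-OHT, which did not pass (adjusted p = 0.492). The line differences of Mylip and Abca1 in 4-OHT passed only without vector 4-OHT replicate 2 (adjusted p = 0.0138 for Mylip and 0.0146 for Abca1).

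**Figure D3:**
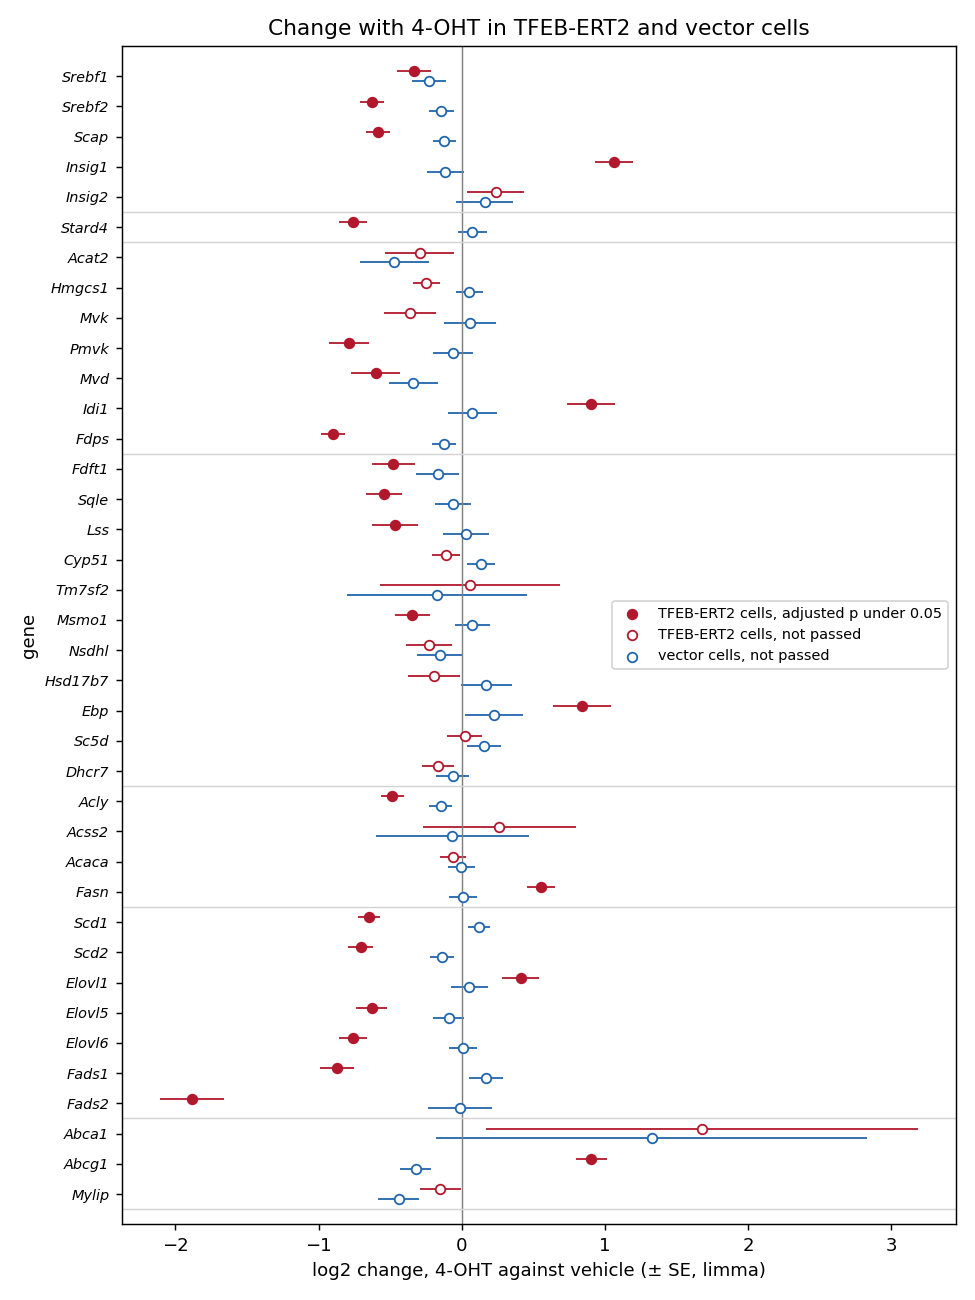
Log2 change with 4-OHT against vehicle (horizontal axis, ± SE from limma) for the 38 genes (rows, by role), in TFEB-ERT2 cells (red, above) and vector cells (blue, below). Filled points passed an adjusted p of 0.05. The 24 filled points are all in TFEB-ERT2 cells, 18 of them left of 0.

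Set side by side, the fatty acid enzymes had the lower median change with 4-OHT in TFEB-ERT2 cells and the sterol enzymes the larger share that did not pass. Of the 11 fatty acid genes 2 rose, 7 fell and 2 did not pass, with a median log2 change of -0.63, and of the 18 sterol genes 2 rose, 7 fell and 9 did not pass, with a median of -0.27. The share past the threshold was thus 81.8% and 50%, beside 27.5% of all tested genes. The 4-OHT and vehicle libraries did not overlap for 9 of the 11 fatty acid and 13 of the 18 sterol genes. Of all tested genes, 38% showed no such overlap. The change was below 0 for 8 of the 11 and 14 of the 18, so the branches differed less by these counts. The share past the threshold also depends on each gene's standard error. With the scaling over values above 0 the medians were -0.498 for the fatty acid genes and -0.141 for the sterol genes. No test of the branches against each other was made, because the genes were chosen with results known. In vector cells the medians were -0.00221 for the fatty acid genes and -0.0166 for the sterol genes. The difference between the lines passed for 1 gene upward and 7 downward of the 11 fatty acid genes (72.7%), with a median of -0.54. It passed for 1 upward (Idi1) and 2 downward (Pmvk and Fdps) of the 18 sterol genes, with a median of -0.28. That is 16.7% of the sterol genes, close to the 15.8% of all tested genes, and their median was -0.163 without TFEB-ERT2 4-OHT replicate 1. Over all tested genes the median of that difference was -0.03.

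The mean log2 level of each branch in each library, relative to its mean in vector vehicle libraries, shows how the 2 branches stand in the 4 groups. The 11 fatty acid genes averaged -0.27 ± 0.02 in TFEB-ERT2 4-OHT libraries and 0.17 ± 0.09 in TFEB-ERT2 vehicle libraries (SD, n = 3 each), without overlap. The 18 sterol genes averaged -0.01 ± 0.12 in TFEB-ERT2 4-OHT libraries and 0.21 ± 0.03 in TFEB-ERT2 vehicle libraries (SD, n = 3 each), again without overlap. All genes have equal weight in these means, so low, variable genes add to their spread. Acss2 had 62.6, 19.2 and 66.4 normalized counts in TFEB-ERT2 vehicle libraries, and Tm7sf2 26.9, 105 and 56.3 in TFEB-ERT2 4-OHT libraries. In vector 4-OHT libraries the fatty acid genes averaged -0.01 ± 0.06 and the sterol genes -0.04 ± 0.10. The desaturases and elongases alone averaged -0.45 ± 0.04 in TFEB-ERT2 4-OHT and 0.28 ± 0.02 in TFEB-ERT2 vehicle libraries. Over all tested genes the mean log2 level spread widely within groups, at 0.35 ± 0.34 in TFEB-ERT2 4-OHT and 0.25 ± 0.28 in TFEB-ERT2 vehicle libraries. In vector 4-OHT libraries it was 0.16 ± 0.38. Relative to vector vehicle cells, then, the sterol genes of TFEB-ERT2 cells were above 0 in vehicle and near 0 in 4-OHT, while the fatty acid genes were above 0 in vehicle and below 0 in 4-OHT. The mean over all tested genes was also above 0 in TFEB-ERT2 vehicle cells (0.25), but its 3 libraries ran from -0.044 to 0.506. The median log2 difference between the lines in vehicle was 0.05 over all tested genes. It was 0.19 for the sterol genes and 0.08 for the fatty acid genes. Whether the position above 0 is particular to either branch was not tested.

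**Figure D4:**
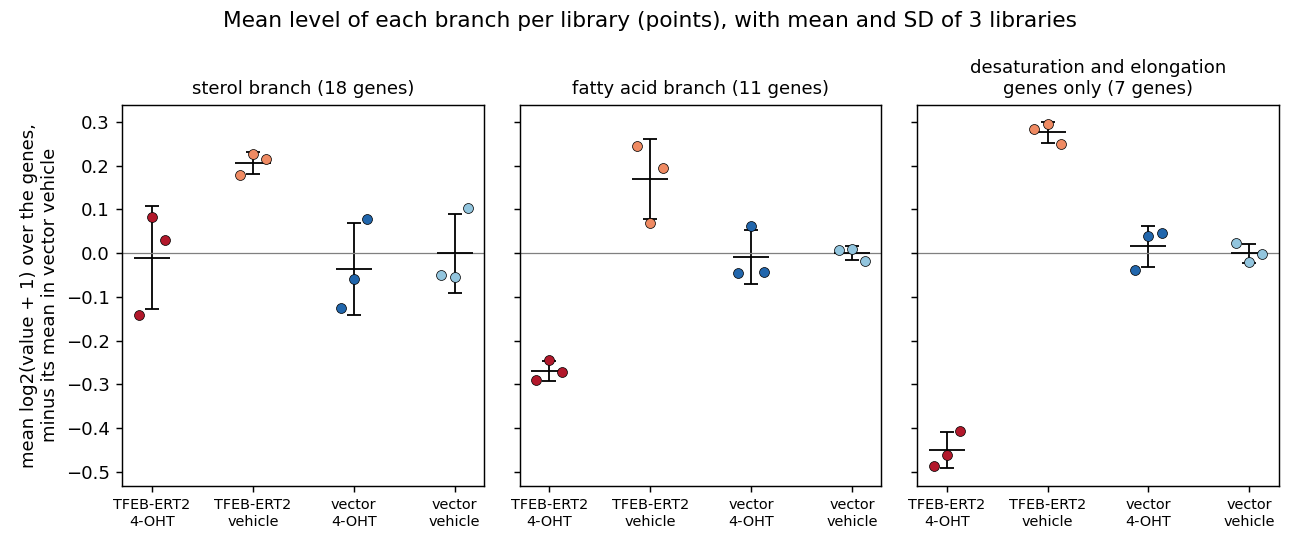
Mean of log2(normalized count + 1) over the genes of a branch, minus its mean in vector vehicle libraries (vertical axis), for each library as a point, with mean and SD of 3 libraries per group. Left, 18 sterol genes; middle, 11 fatty acid genes; right, the 7 desaturases and elongases. The fatty acid genes lie below 0 in the 3 TFEB-ERT2 4-OHT libraries, and both branches lie above 0 in the TFEB-ERT2 vehicle libraries. All tested genes, not drawn, averaged 0.25 ± 0.28 (SD) in those vehicle libraries.

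Without 4-OHT, 5 of the 38 genes were higher in TFEB-ERT2 than in vector cells and 0 were lower with limma, against 2.89% higher and 2.49% lower of all tested genes (5.38% in all). They were Stard4, Scd1, Scd2, Fads1 and Abcg1, with library values as given above, and none belongs to the 18 sterol enzymes. No gene of the 38 was lower at an unadjusted p under 0.05 or with edgeR or DESeq2. Of the 18 sterol enzymes 5 were higher at an unadjusted p under 0.05, 0 with edgeR and 2 with DESeq2. Scd1 was 1.51-fold higher (log2 change 0.59 ± 0.08 SE, adjusted p = 2.45e-06), Scd2 1.36-fold (log2 change 0.45 ± 0.09 SE, adjusted p = 0.000864) and Fads1 1.56-fold (log2 change 0.64 ± 0.12 SE, adjusted p = 0.000709). The line difference of Scd2 was lost in the reduced set of libraries (adjusted p = 0.0805, and 9.23e-07 to 0.981 over all alternatives). The line difference of Fads1 was lost in the reduced set of libraries (adjusted p = 0.0574, and 5.5e-07 to 0.687 over all alternatives). The TFEB-ERT2 vehicle libraries serve in this comparison and in that of 4-OHT against vehicle, so a gene high in them stands higher in the first and lower in the second from the same values.

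In 4-OHT, 6 of the 38 genes were higher and 10 lower in TFEB-ERT2 than in vector cells, against 13.6% and 13.5% of all tested genes (27.1% in all). Insig1, Fasn and Abcg1 were higher, and Scap, Fdps, Elovl6 and Fads2 lower, in all of the alternatives other than the scaling over values above 0. Insig1 was 2.1-fold higher (log2 change 1.07 ± 0.13 SE, adjusted p = 1.06e-07) and Fasn 1.51-fold higher (log2 change 0.59 ± 0.10 SE, adjusted p = 1.32e-05). Fads2 was 3.46-fold lower (log2 change -1.79 ± 0.22 SE, adjusted p = 1.44e-07) and Elovl6 1.65-fold lower (log2 change -0.72 ± 0.10 SE, adjusted p = 6.89e-07). Scap was 1.43-fold lower (log2 change -0.52 ± 0.08 SE, adjusted p = 9.75e-06) and Fdps 1.49-fold lower (log2 change -0.58 ± 0.08 SE, adjusted p = 1.97e-06). The remaining 9 lost their call in at least 1 other alternative, which includes Insig2, described above. Scd1 and Scd2, which were higher in TFEB-ERT2 cells in vehicle, did not pass here with limma (log2 change -0.18 ± 0.08 SE, adjusted p = 0.0849 for Scd1, and -0.12 ± 0.09 SE, adjusted p = 0.348 for Scd2). The lower level of Scd1 passed with DESeq2 on whole reads (adjusted p = 0.0209, and 0.0209 to 1 over all alternatives). Elovl1 did not pass here in the main limma fit but passed in some alternatives (adjusted p = 0.0126 to 0.0499, and 0.0126 to 0.681 over all alternatives).

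Genes next to these pathways were counted from 5 further lists. In vector cells 0 of their 67 tested genes passed with limma, 4 at an unadjusted p under 0.05, 0 with edgeR and 1 with DESeq2. Of 10 isoprenoid genes, which use farnesyl diphosphate for other products, 1 rose and 1 fell with 4-OHT in TFEB-ERT2 cells, a share of 20% against 27.5% of all tested genes, with a median log2 change of -0.04. Icmt, which methylates prenylated proteins, had 929, 813 and 859 normalized counts in TFEB-ERT2 4-OHT libraries, against 654, 633 and 717 in TFEB-ERT2 vehicle libraries (log2 change 0.38 ± 0.12 SE, adjusted p = 0.0158). The call of Icmt was lost without TFEB-ERT2 4-OHT replicate 1 or TFEB-ERT2 vehicle replicate 2 and in the reduced set of libraries (adjusted p = 0.0521 to 0.0817, and 0.00112 to 0.728 over all alternatives). Fntb, a farnesyltransferase subunit, had 222, 168 and 282 normalized counts in TFEB-ERT2 4-OHT libraries, against 284, 303 and 502 in TFEB-ERT2 vehicle libraries (log2 change -0.68 ± 0.24 SE, adjusted p = 0.0356). The call of Fntb was lost without TFEB-ERT2 4-OHT replicates 1 or 2 or TFEB-ERT2 vehicle replicate 3, with no variance trend and in the reduced set of libraries (adjusted p = 0.0741 to 0.257, and 0.0154 to 0.787 over all alternatives). Neither of these isoprenoid changes was stable. For neither gene did the response differ between the lines past the threshold (interaction, adjusted p of at least 0.0997 in every alternative).

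Of 17 sterol handling genes 16 were tested, of which 3 rose and 2 fell with 4-OHT in TFEB-ERT2 cells. That share of 31.2% is close to the 27.5% of all tested genes, and the median log2 change was -0.10. Osbpl8, a lipid exchanger between endoplasmic reticulum and plasma membrane, had 36565, 37181 and 38054 normalized counts in TFEB-ERT2 4-OHT libraries, against 5144, 5874 and 4779 in TFEB-ERT2 vehicle libraries (log2 change 2.83 ± 0.08 SE, adjusted p = 7.74e-22). Stard3, a sterol transporter of late endosomes, had 279, 354 and 376 normalized counts in TFEB-ERT2 4-OHT libraries, against 228, 181 and 164 in TFEB-ERT2 vehicle libraries (log2 change 0.81 ± 0.22 SE, adjusted p = 0.00414). The Stard3 response did not differ between the lines past the threshold (interaction, adjusted p of at least 0.105 in every alternative). Both carriers rose in TFEB-ERT2 cells, and 2 other members of the oxysterol-binding protein family fell. Osbpl2, one of them, had 764, 614 and 680.1 normalized counts in TFEB-ERT2 4-OHT libraries, against 1111, 1014 and 1026 in TFEB-ERT2 vehicle libraries (log2 change -0.62 ± 0.13 SE, adjusted p = 0.000304). The interaction of Osbpl2 passed only with DESeq2 on whole reads and without vector 4-OHT replicate 3 (adjusted p = 0.0126 to 0.0393). Osbpl9, the other, had 1679, 1757 and 1502 normalized counts in TFEB-ERT2 4-OHT libraries, against 2231, 2584 and 2210.4 in TFEB-ERT2 vehicle libraries (log2 change -0.51 ± 0.09 SE, adjusted p = 9.01e-05). The interaction of Osbpl9 passed but was lost with no filter on low values, with edgeR on whole reads and with no variance trend. It was also lost in the reduced set of libraries and without any of several single libraries (adjusted p = 0.0525 to 0.159 over these fits). Of 21 further fatty acid genes 15 were tested, of which 0 rose with limma and 4 fell, a share (26.7%) again close to that of all tested genes, with a median of -0.01. At an unadjusted p under 0.05, 1 was higher, with 0 in edgeR and 1 in DESeq2. Acsl3, an acyl-CoA synthetase of lipid droplets, had 111, 141 and 87.3 normalized counts in TFEB-ERT2 4-OHT libraries, against 171, 253 and 194 in TFEB-ERT2 vehicle libraries (log2 change -0.87 ± 0.24 SE, adjusted p = 0.00619). The call of Acsl3 was lost without TFEB-ERT2 4-OHT replicate 3 (adjusted p = 0.0517, and 0.000374 to 0.615 over all alternatives). Mid1ip1, whose protein binds acetyl-CoA carboxylase, had 453, 418 and 429 normalized counts in TFEB-ERT2 4-OHT libraries, against 685, 648 and 626 in TFEB-ERT2 vehicle libraries (log2 change -0.59 ± 0.12 SE, adjusted p = 0.000386).

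Of 20 glycerolipid synthesis genes, which use the fatty acids, 16 were tested, of which 4 rose and 1 fell. This share too (31.2%) is close to the 27.5% of all tested genes, and the median log2 change was 0.21. Pcyt1a, the rate-limiting enzyme of phosphatidylcholine synthesis, had 9121, 8114 and 8151 normalized counts in TFEB-ERT2 4-OHT libraries, against 680.4, 715 and 659 in TFEB-ERT2 vehicle libraries (log2 change 3.62 ± 0.11 SE, adjusted p = 8.17e-22). Gpam, which adds the first acyl chain to glycerol 3-phosphate, had 10920.4, 9850.0 and 9849 normalized counts in TFEB-ERT2 4-OHT libraries, against 4493, 4102 and 3454 in TFEB-ERT2 vehicle libraries (log2 change 1.35 ± 0.09 SE, adjusted p = 8.39e-14). Cds2, which makes CDP-diacylglycerol, had 1394, 1381 and 1627 normalized counts in TFEB-ERT2 4-OHT libraries, against 2205, 2227 and 1544 in TFEB-ERT2 vehicle libraries (log2 change -0.43 ± 0.12 SE, adjusted p = 0.00512). The call of Cds2 was lost with no variance trend and in the reduced set of libraries (adjusted p = 0.073 to 0.23, and 6.1e-05 to 0.918 over all alternatives). These groups of Cds2 overlapped, and its response did not differ between the lines past the threshold in the main limma fit. That interaction passed without TFEB-ERT2 vehicle replicate 3 (adjusted p = 0.0156). Pcyt1a had 727, 749.8 and 572 in vector 4-OHT and 819, 933 and 971 in vector vehicle libraries, so the TFEB-ERT2 4-OHT libraries stood apart from all others. Its response differed between the lines (interaction 4.04 ± 0.15 SE, adjusted p = 3.21e-18).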

How the data were processed

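Total RNA of 12 libraries of lymphoma cells was sequenced from NuGEN Ovation mouse kit libraries, per the labels' protocols. The deposited values are normalized read counts, a signal that the authors made from gene read counts and 1 size factor per library. Build mm10 was used with STAR (2.5.3), DESeq2 (1.6.3) and HTSeq (0.6.1), per the submitters' processing notes, while the sources used here do not give their roles, the annotation or the strand setting. All values were whole multiples, within 0.001, of the value of 1 read, so whole reads (11849029 to 22109283 per library) were recovered. Floors of 3 reads cover counting error only.

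From these, log2(value + 1) was fitted with limma 3.58.1 in R 4.3.3, with 1 mean for each of 4 groups, 8 residual degrees of freedom and a variance trend, over the 13111 genes with at least 10 in at least 3 libraries. P-values are two-sided, adjusted by Benjamini-Hochberg over those genes, with a threshold of 0.05. The pseudocount understates changes of low genes. The 5 comparisons share libraries. edgeR 4.0.16 (quasi-likelihood, TMM) and DESeq2 1.42.0 on whole reads, other pseudocounts (0.5 and 10), filters, scalings, a replicate block and leaving out each library were alternatives. The fit was tested on simulated data with the same dispersion for every gene. These data lacked the uneven number of genes with reads, so that test cannot speak to its effect.

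The genes and lists were chosen with earlier results of these data known. All 38 are described by role. Those past the threshold in any comparison have each library's value, and of each other list up to 2 genes per direction with the largest change and a mean of at least 100 are named. The result of 1 of those lists is not reported here. Exon overlap and 50-base sharing were computed from GENCODE M21 on GRCm38, the assembly of mm10, and promoters are RefSeq's. Where genes overlap or share sequence, the authors' counting may have split their reads.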

Additional observations from a re-analysis of the deposited data

Results flagged for a closer look

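For 16 of the 38 genes the response to 4-OHT differed between TFEB-ERT2 and vector cells, by limma's test of that difference itself. The difference, on the log2 scale, was above 0 for Abcg1 (1.23), Insig1 (1.18), Idi1 (0.83) and Fasn (0.55). It was below 0 for Fads2 (-1.87), Fads1 (-1.04), Stard4 (-0.83), Fdps (-0.77), Scd1 (-0.77), Elovl6 (-0.77), Pmvk (-0.72), Scd2 (-0.57), Elovl5 (-0.54), Srebf2 (-0.48), Scap (-0.46) and Acly (-0.34). In vector cells the 4-OHT changes of these 16 genes lay between -0.32 and 0.17, and 0 of them passed there with limma, edgeR or DESeq2. The values and standard errors of each are in the report, and groups of 3 were not searched for single libraries that stand apart.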

How the results depend on the processing

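Among the 38 genes, Tfeb and the genes named from the other lists, no gene changed direction while called in any alternative run. The direction of the other tested genes was not checked. With limma, 3611 for 4-OHT in TFEB-ERT2 cells, 2 for 4-OHT in vector cells, 2066 for the interaction, 705 for TFEB-ERT2 against vector in vehicle and 3553 for TFEB-ERT2 against vector in 4-OHT passed over all genes, and 24 for 4-OHT in TFEB-ERT2 cells, 0 for 4-OHT in vector cells, 16 for the interaction, 5 for TFEB-ERT2 against vector in vehicle and 16 for TFEB-ERT2 against vector in 4-OHT among the 38. Leaving out 1 library at a time gave 2975 to 3734 genes for 4-OHT in TFEB-ERT2 cells, 0 to 55 genes for 4-OHT in vector cells, 1773 to 2108 genes for the interaction, 433 to 824 genes for TFEB-ERT2 against vector in vehicle and 2973 to 3752 genes for TFEB-ERT2 against vector in 4-OHT, and 19 to 25 of the 38 for 4-OHT in TFEB-ERT2 cells, 0 of the 38 for 4-OHT in vector cells, 14 to 16 of the 38 for the interaction, 5 to 7 of the 38 for TFEB-ERT2 against vector in vehicle and 12 to 18 of the 38 for TFEB-ERT2 against vector in 4-OHT. The sterol medians then were -0.321 to -0.267 for 4-OHT in TFEB-ERT2 cells, -0.0507 to 0.0186 for 4-OHT in vector cells, -0.321 to -0.163 for the interaction, 0.181 to 0.255 for TFEB-ERT2 against vector in vehicle and -0.101 to 0.00371 for TFEB-ERT2 against vector in 4-OHT, and the fatty acid medians -0.689 to -0.486 for 4-OHT in TFEB-ERT2 cells, -0.0667 to 0.0257 for 4-OHT in vector cells, -0.591 to -0.395 for the interaction, 0.0738 to 0.127 for TFEB-ERT2 against vector in vehicle and -0.294 to -0.174 for TFEB-ERT2 against vector in 4-OHT. The count for 4-OHT in vector cells was 55 without vector 4-OHT replicate 2 and 25 without vector vehicle replicate 1, and that for TFEB-ERT2 against vector in vehicle was 466, 439 and 433 without TFEB-ERT2 vehicle replicate 2, vector vehicle replicate 2 or vector vehicle replicate 3. Medians near 0 changed sign, that of the sterol genes for 4-OHT in vector cells without vector 4-OHT replicates 1 or 2 or vector vehicle replicate 3, that of the fatty acid genes there without vector vehicle replicates 1 or 3, and that of the sterol genes for TFEB-ERT2 against vector in 4-OHT without TFEB-ERT2 4-OHT replicate 1. For 4-OHT in vector cells 0 genes passed with a pseudocount of 0.5, a minimum of 50, upper-quartile scaling, edgeR, no variance trend or the compared groups alone, and 48 with DESeq2. For TFEB-ERT2 against vector in vehicle, DESeq2 called 1224 genes and 9 of the 38, no variance trend 259 genes and the compared groups alone 352 genes. The reduced set of libraries gave 2378 for 4-OHT in TFEB-ERT2 cells, 12 for 4-OHT in vector cells, 1098 for the interaction, 218 for TFEB-ERT2 against vector in vehicle and 2357 for TFEB-ERT2 against vector in 4-OHT over all genes, 20 for 4-OHT in TFEB-ERT2 cells, 0 for 4-OHT in vector cells, 8 for the interaction, 2 for TFEB-ERT2 against vector in vehicle and 7 for TFEB-ERT2 against vector in 4-OHT among the 38, sterol medians of -0.287 for 4-OHT in TFEB-ERT2 cells, -0.058 for 4-OHT in vector cells, -0.245 for the interaction, 0.208 for TFEB-ERT2 against vector in vehicle and -0.0825 for TFEB-ERT2 against vector in 4-OHT, and fatty acid medians of -0.462 for 4-OHT in TFEB-ERT2 cells, 0.00795 for 4-OHT in vector cells, -0.371 for the interaction, 0.141 for TFEB-ERT2 against vector in vehicle and -0.135 for TFEB-ERT2 against vector in 4-OHT. Scaling by the upper quartile of values above 0 gave 665 for 4-OHT in TFEB-ERT2 cells, 1 for 4-OHT in vector cells, 245 for the interaction, 133 for TFEB-ERT2 against vector in vehicle and 790 for TFEB-ERT2 against vector in 4-OHT over all genes, 2 for 4-OHT in TFEB-ERT2 cells, 0 for 4-OHT in vector cells, 0 for the interaction, 0 for TFEB-ERT2 against vector in vehicle and 3 for TFEB-ERT2 against vector in 4-OHT among the 38, sterol medians of -0.141 for 4-OHT in TFEB-ERT2 cells, 0.142 for 4-OHT in vector cells, -0.308 for the interaction, 0.397 for TFEB-ERT2 against vector in vehicle and 0.129 for TFEB-ERT2 against vector in 4-OHT, and fatty acid medians of -0.498 for 4-OHT in TFEB-ERT2 cells, 0.156 for 4-OHT in vector cells, -0.566 for the interaction, 0.284 for TFEB-ERT2 against vector in vehicle and -0.00234 for TFEB-ERT2 against vector in 4-OHT. The factors of that scaling were 0.664 to 1.34 and go with the number of genes with reads, and it made 61.5% of all calls for 4-OHT in TFEB-ERT2 cells higher, against 49.6% before. These last 2 alternatives were chosen after seeing the data. The cause of the changes was not tested.

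Replicate numbers gave no clear pairing of the libraries. Correlations of same-numbered deviations were -0.543 to 0.671, 4 of 18 pairs were above 0.1, and 4 libraries correlated best with their own number. Between TFEB-ERT2 4-OHT and vector 4-OHT they were 0.344, 0.671 and 0.0771. Between TFEB-ERT2 vehicle and vector 4-OHT they were 0.0454, -0.543 and -0.37. The check does not separate pairing from the uneven number of genes with reads, so it cannot exclude pairing. With the replicate number as a block, 3601 for 4-OHT in TFEB-ERT2 cells, 2 for 4-OHT in vector cells, 2094 for the interaction, 723 for TFEB-ERT2 against vector in vehicle and 3548 for TFEB-ERT2 against vector in 4-OHT passed over all genes and 24 for 4-OHT in TFEB-ERT2 cells, 0 for 4-OHT in vector cells, 16 for the interaction, 6 for TFEB-ERT2 against vector in vehicle and 16 for TFEB-ERT2 against vector in 4-OHT among the 38. For single genes, calls ended in 70 cases and appeared in 7 over all genes named and all alternatives for 4-OHT in TFEB-ERT2 cells, and in 61 and 13 for the interaction, while 1146 and 1098 cases kept their side of the threshold. Depth limits Abca1, Acss2 and Tm7sf2, whose low counts give wide errors.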
